A study of Mus musculus with 3 samples.

Results

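The cadherin and protocadherin genes of neural precursor cultures were described on 3 expression arrays. Members were the probe sets whose annotation carried exactly 1 gene symbol starting with Cdh and a number, or with Pcdh, and each gene was represented by its probe set with the highest mean signal. This rule found 58 genes among 22180 measured genes: 18 classical cadherins, 5 other Cdh genes, 12 non-clustered protocadherins and 23 clustered protocadherins. The RNA came from neurospheres, floating colonies of dividing precursor cells, that were grown out of the ventricular-subventricular zone (V-SVZ), a stem cell region beside the lateral ventricles, of CD1 pups that were wild type and labelled as postnatal day 8. Plating was at 10 cells per microlitre, the medium held FGF (10 ng/ml) and EGF (20 ng/ml), culture lasted 7 days, and the protocol allows an age of 7 or 8 days. There was 1 group of 3 arrays and no contrast. The protocol kept pups in separate cultures, but the labels used here do not tie an array to a pup. The p-values below therefore rest only on differences between these arrays, pooled over genes, which can be technical.

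Cadherins are membrane proteins that join cells through calcium-dependent contacts between their outer domains. Classical cadherins bind catenins inside the cell, which link the contact to actin, and in radial glia and neural stem cells such junctions hold cells to their neighbours. Non-clustered protocadherins are separate genes with roles in weak adhesion, axon growth and signalling. Clustered protocadherins lie in the alpha, beta and gamma gene clusters, from which a cell expresses a selection of promoters, and in neurons the resulting combination serves self-recognition.

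Signals are log2 values. With no second group, a gene's signal was compared with an array-specific level of unspecific signal, taken as the 95th percentile of probe sets for olfactory and vomeronasal receptors, genes of the nasal epithelia. This reference level was 5.63, 5.53 and 5.71 on arrays 1, 2 and 3. A gene was called above it when limma's one-sided moderated test gave a Benjamini-Hochberg adjusted p under 0.05 over all genes. The spread was shared over genes of like signal, so very small p-values carry no information beyond the margin and are not printed. Signals of different genes depend on their probes and are not ranked against each other. In RNA of whole cultures, fewer expressing cells and less RNA per cell cannot be told apart. As a check of the labelled cells, all 6 neural stem cell markers, all 6 neuroblast markers and all 5 oligodendrocyte precursor markers were above the reference level, against 59.1% of all genes. Markers of other cells were above in part, with 5 of 7 for mural cells and fibroblasts, 3 of 5 for microglia and 1 of 8 for endothelium. The counts of marker and partner lists below are to be read beside the same 59.1%.

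Of the 58 cadherin and protocadherin genes, 46 (79.3%) were above the reference level, against 59.1% of all genes. By class, type I classical cadherins had 4 of 5 genes above (80%), type II classical cadherins 9 of 13 (69.2%) and other Cdh genes 2 of 5 (40%). Non-clustered protocadherins had 11 of 12 genes above (91.7%) and clustered protocadherins 20 of 23 (87.0%). The median signal was 6.24 over type I genes, 7.14 over type II genes, 5.18 over other Cdh genes, 7.72 over non-clustered and 7.46 over clustered protocadherins, beside 6.39 over all genes. These medians depend on the probes of each class and are given as a description, with no order read from them. The counts are over genes with no test between classes, and the type I and other Cdh classes hold 5 genes each. With the stricter 99th percentile of the receptors, 35 members were above, against 44.9% of all genes, and the type I count was 2 and the other Cdh count 1. With a level taken from keratin-associated, defensin and taste receptor genes, 31 members were above, against 43.5% of all genes.

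**Figure D1:**
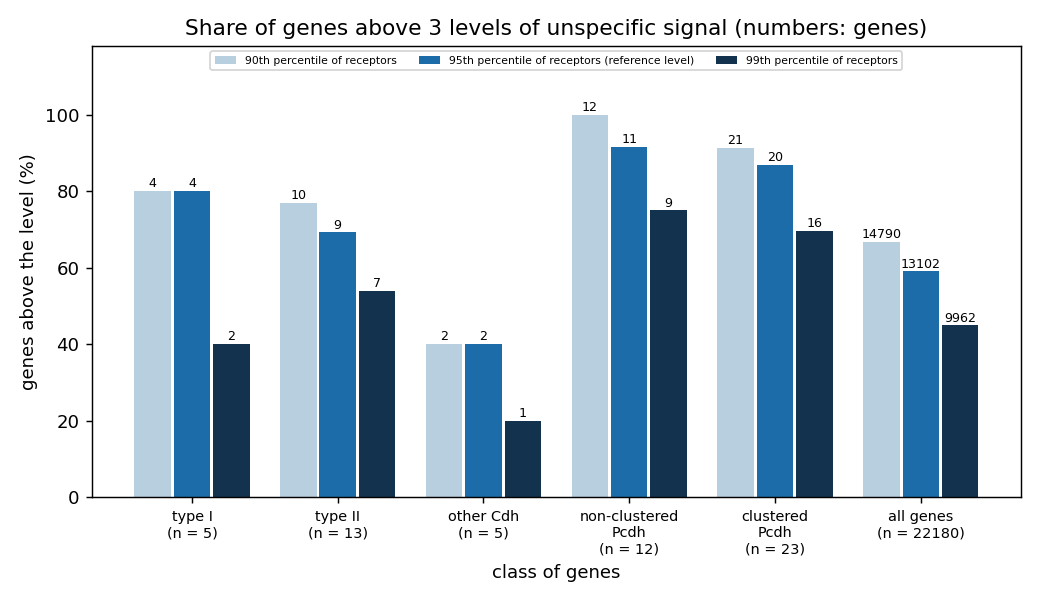
Share of genes above the 90th, 95th and 99th percentile of receptor signals (vertical axis, percent) for each class of cadherin genes and for all genes, with the number of genes printed on each bar. At the 95th percentile 11 of 12 non-clustered and 20 of 23 clustered protocadherins were above, against 59.1% of all genes.

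Among type I cadherins, Cdh2 and Cdh4 stood far over the reference level. Cdh2 encodes N-cadherin, the main cadherin of neuroepithelial junctions, and had 11.58 on each of the 3 arrays. Its second probe set read 8.92 on each array and was also above on all 3. Cdh4, which encodes R-cadherin of the retina and brain, had 8.81 on each array, and its second probe set read 6.26. Cdh15 encodes M-cadherin, first known from muscle, and had 6.14, 6.14 and 6.45 on arrays 1, 2 and 3. It was above the reference level on each array, with array 3 the highest, and exceeded the 99th percentile of the receptors (6.42, 6.09 and 6.69) on array 2 alone. Its call ended with that percentile.

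Cdh1 and Cdh3, neighbouring genes of epithelial cadherins on chromosome 8, lay near or under the reference level. Cdh1, which encodes E-cadherin, had 5.83, 5.66 and 6.06, a mean of 5.85 ± 0.20 (SD, n = 3), and passed the test with a margin of 0.23 ± 0.11 over the reference level (limma adjusted p = 0.00301). The margin was above 0 on all 3 arrays but small, and the call was lost without replicate 1 (adjusted p = 0.108) and without replicate 3 (adjusted p = 0.0732). The probe sets of Cdh1 disagreed, since the second read 4.34 on each array and was not above on any. Cdh3, which encodes P-cadherin, had 5.0, 5.0 and 5.36 and was not above. Of 8 epithelial markers 3 were above: Epcam (6.44), Krt8 (6.33) and Cldn3 (5.88 ± 0.29), while Krt18 (5.19), Krt19 (5.42), Cldn4 (5.41) and the splicing factor gene Esrp1 (4.06) were not. The part of such cells in the Cdh1 signal was not tested.

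Of the 6 measured transcription factor genes known as repressors of Cdh1, 3 (50%) were above the reference level, against 59.1% of all genes. Zeb1 (10.20), Tcf3 (8.87) and Snai2 (6.46) were above, and Snai1 (5.23), Twist1 (5.19) and Twist2 (4.44) were not.

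Type II cadherins ranged from genes far above the reference level to genes more than 1 log2 unit under it. Cdh11, known from bone-forming and other mesenchymal cells and from developing brain, had 10.67 on each array. Cdh20 had 9.86, 9.92 and 9.86. Cdh10 had 9.74, 9.76 and 9.74, and Cdh6 had 9.11, 9.15 and 9.07. Each of these genes was more than 3 log2 units above the reference level on every array, far beyond the spread between the arrays. Cdh22 (7.79, 7.79 and 7.76), Cdh24 (7.13, 7.14 and 7.13) and Cdh19 (7.42, 7.61 and 7.27) were also above on each array. Cdh19 is known from neural crest and Schwann cells, and of 3 measured markers of those cells Pmp22 (7.50) and Foxd3 (6.01) were above and Ngfr (5.64) was not.

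Cdh8 (6.16 on each array) and Cdh7 (5.92 on each array) were closer to the reference level. Cdh7 had a margin of 0.30 ± 0.091 (limma adjusted p = 1.06e-04), above 0 on all 3 arrays. Its signal was equal on the arrays, so this ± is the spread of the reference level alone. Both calls ended with the 99th percentile of the receptors, where the margins were -0.24 for Cdh8 and -0.48 for Cdh7. The 4 type II genes not above were Cdh5, Cdh9, Cdh12 and Cdh18. Cdh9 had 4.13, 4.04 and 4.13, Cdh12 had 4.38, 4.75 and 4.38, and Cdh18 had 5.04 on each array.

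Cdh5 encodes VE-cadherin, the junction protein of blood vessels, and had 5.51, 5.41 and 5.51. It was under the reference level on every array, by 0.15 on average. Of 8 endothelial markers 1 was above, the VEGF receptor gene Kdr (6.84 ± 0.064), while Pecam1 (5.30), Tek (5.0), Flt1 (5.46) and Cldn5 (5.11) were not. With the 90th percentile of the receptors as the level, where 66.7% of all genes were above, Cdh5 was called above (margin 0.21, limma adjusted p = 0.00171).

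**Figure D2:**
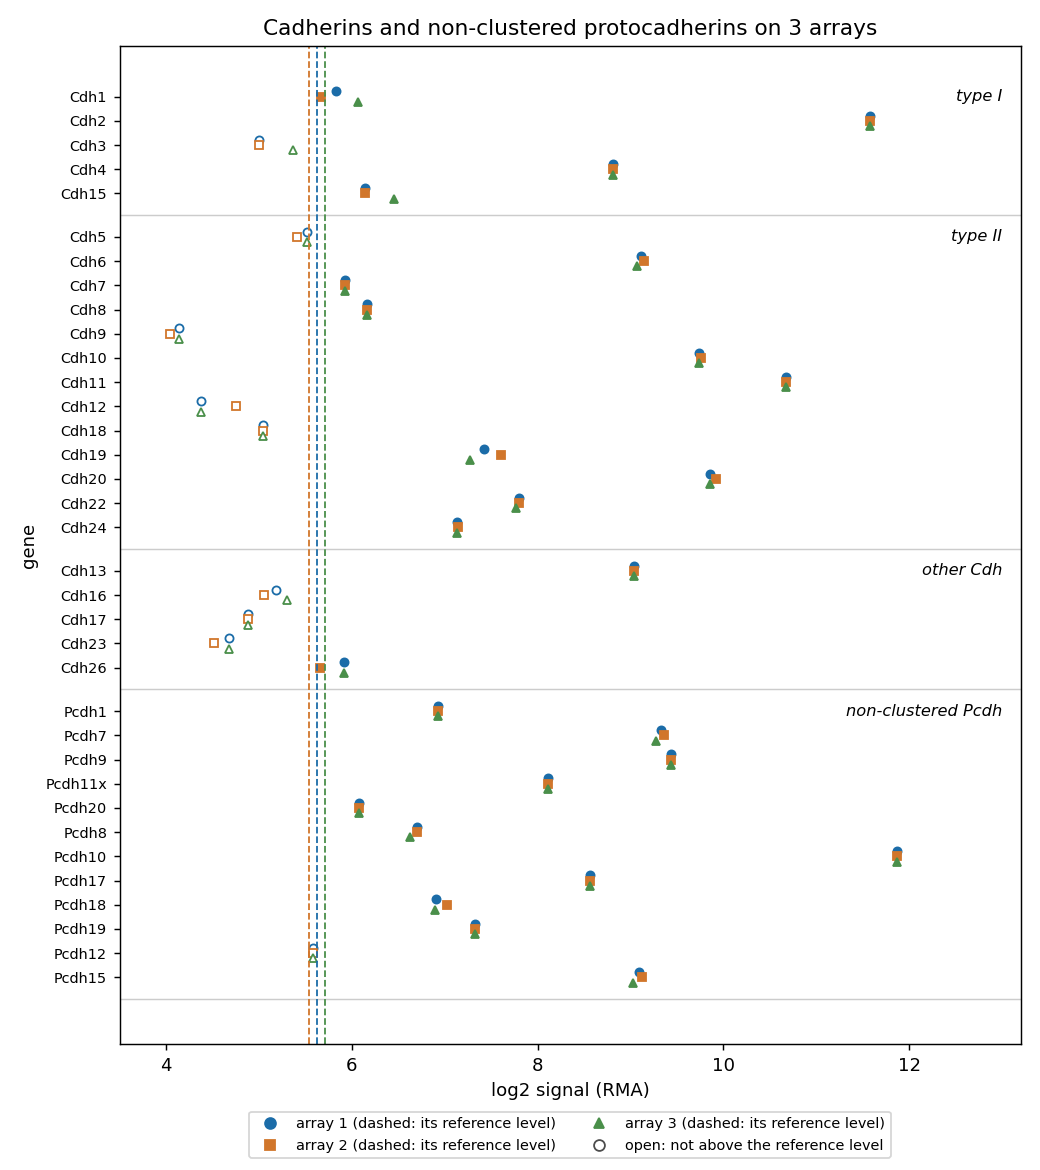
Log2 signal (horizontal axis) of the 35 cadherins and non-clustered protocadherins, with the 3 arrays as separate symbols and dashed lines at each array's reference level. Open symbols mark the 9 genes not above the level. Cdh2 (11.58) and Pcdh10 (11.87) lie far to the right, and positions of different genes depend on their probes.

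Calls alternated along a run of type II genes on chromosome 15. In the order of the RefSeq annotation, Cdh6 was above, Cdh9 not, Cdh10 above, Cdh12 not and Cdh18 not. There was no other protein-coding gene between Cdh6 and Cdh9, Cdh9 and Cdh10, or Cdh10 and Cdh12, and 1 between Cdh12 and Cdh18. The bases before the annotated starts are shown because these neighbours had opposite calls. The windows, from RefSeq on GRCm38.p6, are the 250 bases before the start, read 5′ to 3′ on the gene's strand: Cdh6 at chr15:13173676-13173925 (minus strand), Cdh9 at chr15:16728665-16728914, Cdh10 at chr15:18820079-18820328, Cdh12 at chr15:21111202-21111451 and Cdh18 at chr15:23036213-23036462 (all plus strand). Capitals mark CG dinucleotides, which are frequent in promoters of the CpG island type.
Cdh6: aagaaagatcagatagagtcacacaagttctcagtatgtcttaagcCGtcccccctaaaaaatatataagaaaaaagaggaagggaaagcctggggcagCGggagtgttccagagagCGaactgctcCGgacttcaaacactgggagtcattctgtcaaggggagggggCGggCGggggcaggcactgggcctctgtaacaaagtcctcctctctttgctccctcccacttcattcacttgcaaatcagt
Cdh9: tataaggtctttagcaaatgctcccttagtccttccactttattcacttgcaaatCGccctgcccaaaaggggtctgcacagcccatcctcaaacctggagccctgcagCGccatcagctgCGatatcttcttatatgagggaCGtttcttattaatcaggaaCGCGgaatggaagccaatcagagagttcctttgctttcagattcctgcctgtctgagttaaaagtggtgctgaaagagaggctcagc
Cdh10: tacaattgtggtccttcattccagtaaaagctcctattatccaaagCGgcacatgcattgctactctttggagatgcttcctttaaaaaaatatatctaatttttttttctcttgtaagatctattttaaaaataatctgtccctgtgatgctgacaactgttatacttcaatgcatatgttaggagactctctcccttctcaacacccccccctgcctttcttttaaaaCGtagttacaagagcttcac
Cdh12: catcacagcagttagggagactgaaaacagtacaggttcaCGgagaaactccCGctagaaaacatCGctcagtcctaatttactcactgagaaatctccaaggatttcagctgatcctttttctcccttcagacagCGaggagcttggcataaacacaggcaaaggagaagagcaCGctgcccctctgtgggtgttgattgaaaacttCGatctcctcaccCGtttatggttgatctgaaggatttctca
Cdh18: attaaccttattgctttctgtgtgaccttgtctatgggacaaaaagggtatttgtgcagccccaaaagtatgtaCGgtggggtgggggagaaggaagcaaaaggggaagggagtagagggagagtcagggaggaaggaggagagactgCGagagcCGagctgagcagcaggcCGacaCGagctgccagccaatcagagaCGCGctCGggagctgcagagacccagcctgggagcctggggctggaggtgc

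The 5 windows held 6, 6, 2, 7 and 8 CG dinucleotides for Cdh6, Cdh9, Cdh10, Cdh12 and Cdh18. The 2 genes above, Cdh6 and Cdh10, had no more of them than the 3 genes not above. Cdh6 and Cdh9 shared a run of 15 bases, attcacttgcaaatc, which stood in only 2 of 32851 windows of the RefSeq table on either strand, those of these genes. It begins at base 233 of the Cdh6 window and at base 42 of the Cdh9 window, counted from the 5′ end. Cdh9 and Cdh18 shared 13 bases, agccaatcagaga, a run that holds the letters CCAAT and stood in 31 windows. These are matches of letters only, and whether the annotated starts are used in the cultures was not tested.

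Promoter windows were at hand for 22 of the 58 members, on chromosomes other than 18. Taking the window with the most CG for each gene, the 18 members above had a median of 13.5 CG per 250 bases (0 to 30) and the 4 not above had 6.5 (5 to 8), beside 6 over 27025 genes of the table. Windows with 10 or more CG were found for 11 of the 18 members above and for 0 of the 4 not above, against 40.2% of all genes. The letters CCAAT, searched on both strands, stood in 11 of 18 and in 2 of 4 windows, against 33.9% of genes. TATAAA, searched the same way, stood in 2 of 18 and in 0 of 4, against 12.6% of genes. Cdh26 (0 CG), Cdh10 (2 CG) and Pcdh20 (3 CG) were above with few CG in their windows. The 4 genes not above were Cdh23 and the chromosome 15 neighbours Cdh9, Cdh12 and Cdh18. The shares of all genes cover genes of any signal. With 4 genes in the smaller group these counts are a description.

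The other Cdh genes code for atypical cadherins. Cdh13 encodes T-cadherin, which is held by a lipid anchor and lacks the catenin-binding tail, and had 9.04 on each array. Cdh26 had 5.91, 5.66 and 5.91, and passed with a margin of 0.20 ± 0.081 (limma adjusted p = 0.00759), above 0 on all 3 arrays. Its call was lost without replicate 1 (adjusted p = 0.25), which left Cdh13 as the sole called gene of the class (1 of 5). The kidney cadherin gene Cdh16 (5.19, 5.05 and 5.31), the intestinal cadherin gene Cdh17 (4.88 on each array) and Cdh23 (4.67, 4.51 and 4.67) were not above on any array. Of 6 kidney and intestine markers Lgals4 (5.81) was above, and of 6 muscle markers, listed for Cdh15, Myod1 (5.95 ± 0.22) and Myog (5.98 ± 0.30) were above with small margins.

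Non-clustered protocadherins were above the reference level with 1 exception, against 59.1% of all genes. With the level from keratin-associated, defensin and taste receptor genes the count was 7 of 12, against 43.5% of all genes. Pcdh1 (limma adjusted p = 0.0734), Pcdh18 (adjusted p = 0.0616), Pcdh8 (adjusted p = 0.372) and Pcdh20 (margin -0.36) were then not called. In the delta-1 group, all 5 genes were above. Pcdh9 had 9.44 on each array, Pcdh7 had 9.32, 9.36 and 9.27, the X-linked gene Pcdh11x had 8.11 on each array and Pcdh1 had 6.92 on each array. Pcdh20 had 6.08 on each array, and its call ended with the 99th percentile of the receptors (margin -0.32). In the delta-2 group, all 5 genes were above as well. Pcdh10, also called OL-protocadherin, had 11.87 on each array. Pcdh17 had 8.56, 8.57 and 8.56, and Pcdh19, an X-linked gene mutated in a form of epilepsy, had 7.33 on each array. Pcdh18 had 6.91, 7.03 and 6.90, and Pcdh8, an activity-regulated protocadherin, had 6.70, 6.70 and 6.62. The call of Pcdh8 ended with the 99th percentile of the receptors (limma adjusted p = 0.213). Pcdh8, Pcdh17, Pcdh20 and Pcdh9 follow each other in gene order on chromosome 14, with at most 2 other protein-coding genes between neighbours, and all were above.

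Pcdh12 and Pcdh15 stand outside these groups. Pcdh12, known from endothelial cells, had 5.58 on each array. It was above the reference level on array 2 and under it on arrays 1 and 3, by 0.042 on average over the arrays, and was not called. Pcdh15, a part of the tip link of hair cells in the inner ear that is also known from oligodendrocyte precursors, had 9.09, 9.13 and 9.02. A second probe set of Pcdh15 read 5.92 on each array, also above. Its tip link partner Cdh23 was not above. Of 9 measured tip link partners 3 were above: Tmie (7.15), Whrn (6.96 ± 0.13) and Myo7a (5.84), while Ush1c (5.35), Ush1g (5.67 ± 0.19), Clrn1 (5.07) and Tmc1 (4.58) were not. Of 5 hair cell markers 0 were above by limma, whether the p under 0.05 was adjusted or not, with Pou4f3 at 5.40 and Otof at 5.67. All 5 oligodendrocyte precursor markers were above, among them Pdgfra (10.97) and Olig2 (11.37). So were all 6 neural stem cell and all 6 neuroblast markers. The part of each cell type in the Pcdh15 signal was not tested.

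For the clustered protocadherins the array resolves the beta cluster almost alone. The RefSeq annotation lists 14 alpha, 22 beta and 22 gamma genes, of which 0 alpha, 22 beta and 1 gamma gene had a probe set with their symbol alone. Alpha and gamma transcripts join a variable first exon to constant exons shared by the whole cluster, whereas each beta gene is an exon of its own. Pcdhga10, the gamma gene measured, had 10.59, 10.55 and 10.39. The files used here give no probe positions, so its signal and that of other gamma genes cannot be told apart. The beta genes resemble each other in sequence, so signals may be shared among them too.

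Of the 22 beta genes, 19 (86.4%) were above the reference level, against 59.1% of all genes. In the order of the cluster on chromosome 18, the exceptions were Pcdhb1 (4.97 on each array), Pcdhb5 (5.43, 5.42 and 5.36) and Pcdhb9 (4.56, 4.56 and 4.24), and all 13 genes from Pcdhb10 to Pcdhb22 were above. The first 4 genes above in name order were Pcdhb2 (6.50, 6.60 and 6.42), Pcdhb3 (6.90, 6.96 and 6.89), Pcdhb4 (6.53, 6.54 and 6.52) and Pcdhb6 (9.83 on each array). Pcdhb7 (7.13), Pcdhb8 (8.23), Pcdhb10 (6.44), Pcdhb11 (7.46), Pcdhb12 (6.75), Pcdhb13 (7.00), Pcdhb14 (7.80) and Pcdhb15 (7.46) followed. At the far end of the cluster Pcdhb16 had a mean of 8.19, Pcdhb17 8.75, Pcdhb18 8.82, Pcdhb19 8.28, Pcdhb20 8.72, Pcdhb21 6.92 and Pcdhb22 8.18. With the 99th percentile of the receptors the calls of Pcdhb2, Pcdhb4, Pcdhb10 and Pcdhb12 ended. This left 16 of 23 clustered genes above, against 44.9% of all genes. With the level from keratin-associated, defensin and taste receptor genes the calls of Pcdhb3 (limma adjusted p = 0.0764) and Pcdhb21 (adjusted p = 0.0760) ended as well. That left 14 of 23, against 43.5% of all genes. With the 90th percentile, Pcdhb5 was called as well (margin 0.14, limma adjusted p = 0.0365).

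**Figure D3:**
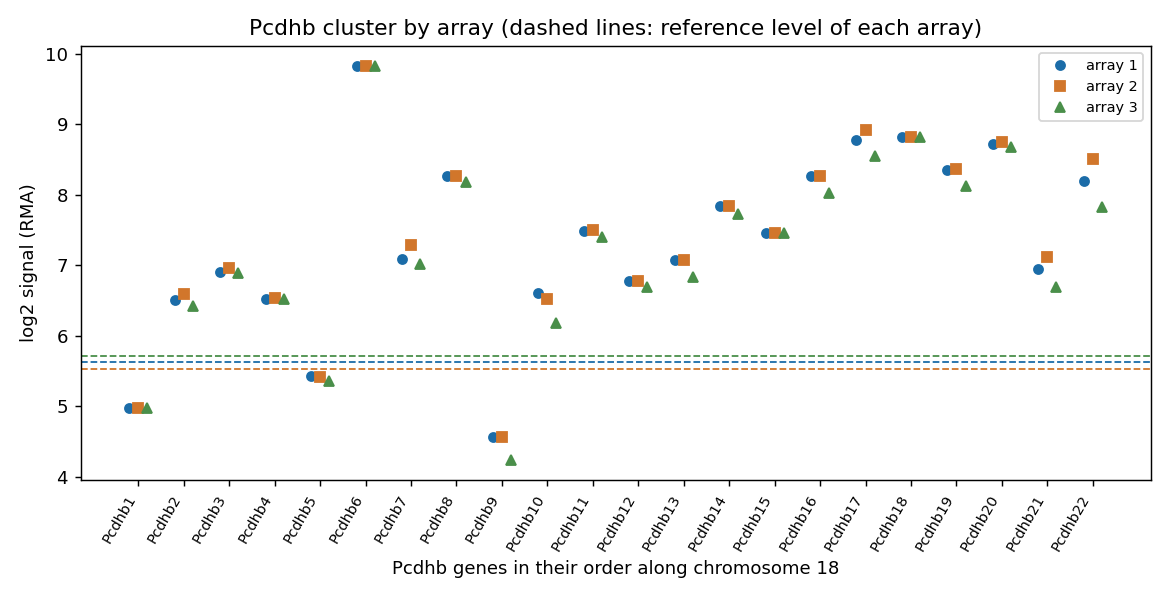
Log2 signal (vertical axis) of the 22 Pcdhb genes in their order along chromosome 18, with the 3 arrays as separate symbols and dashed lines at the reference levels. Pcdhb1, Pcdhb5 and Pcdhb9 lie under the lines, and array 3 is the lowest of the arrays for 18 of the 22 genes.

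The beta genes also shared a direction between the arrays. Array 3 held the strictly lowest signal for 18 of 22 beta genes, against 21.7% of all genes and 40.1% of the 8579 genes with mean signals in the range of the beta genes above. The other 4 were Pcdhb1, Pcdhb6 and Pcdhb18, equal on all arrays, and Pcdhb15, equal on arrays 1 and 3. Ties were rarer here, with 3 of 22 beta genes equal on all arrays, against 39.4% of all genes and 34.1% of those of like signal. A gene equal on all arrays cannot be strictly lowest, so these shares also depend on how often values tie. For the beta genes, array 3 minus array 2 had a median of -0.10, beside 0 over all genes and -0.024 over genes of like signal. It ran from -0.68 (Pcdhb22) to 0. Array 3 minus array 1 ran from -0.43 (Pcdhb10) to 0. Pcdhb22 had 8.19, 8.51 and 7.83, Pcdhb17 had 8.78, 8.92 and 8.56, Pcdhb21 had 6.94, 7.12 and 6.69, and Pcdhb10 had 6.61, 6.52 and 6.18. Pcdhga10 was also lowest on array 3, by 0.20 against array 1.

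The counts were lower in the other classes. Array 3 was strictly lowest for 0 of 5 type I, 4 of 13 type II, 0 of 5 other Cdh and 4 of 12 non-clustered genes. In these classes 4 type II and 7 non-clustered genes were equal on all arrays. For 0 type II and 0 non-clustered genes was array 3 strictly highest, as for the beta genes. A strictly lowest array 3 thus also occurred outside the beta genes, but less often than the 18 of 22 seen among them. Array 3 was strictly highest for 3 of 5 type I genes, Cdh1, Cdh3 and Cdh15. The share of all genes with array 3 strictly highest is not given here, so these counts have no background to be read against. Cdh1, Cdh3 and Cdh15 had mean margins of 0.23, -0.51 and 0.62 to the reference level, which was itself highest on array 3. Cdh16 was the only other member with array 3 strictly highest. Cdh7 and Pcdh12, also near the level, were equal on all arrays, and Pcdhb5 was lowest on array 3. The part of unspecific signal in these orders was not tested. The beta counts come from 3 arrays and from genes that may share probe binding, so no test was made, and the parts of array quality and of cell composition in the pattern were not tested.

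**Figure D4:**
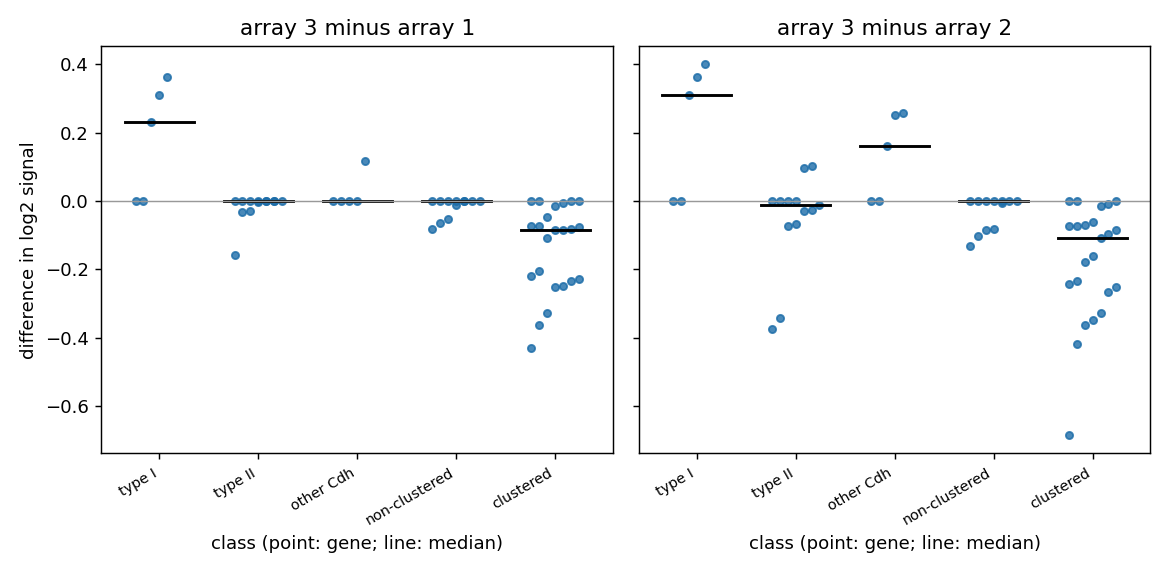
Difference in log2 signal between array 3 and array 1 (left) and between array 3 and array 2 (right) for each gene, by class, with a line at the class median. Clustered protocadherins lie at or below 0 in both panels, and Pcdhb22 is lowest at -0.68 against array 2.

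The spread between arrays was otherwise small. Of the 58 members, Pcdhb22 alone (1) had a range over 0.5 log2 units, against 5.31% of all genes and 2.57% of genes above the reference level. The median range was 0.074 over members and 0.036 over all genes. Exactly equal values on all 3 arrays were found for 18 members, beside 39.4% of all genes, and on at least 2 arrays for 37 members, 63.8% against 75.0% of all genes, so an SD of 0 understates the true spread.

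Partners of the classical cadherins were measured broadly. Of 12 catenins and junction partners 11 were above the reference level, against 59.1% of all genes. The beta-catenin gene Ctnnb1 had 12.21 on each array, the plakoglobin gene Jup 6.86 ± 0.030, the alpha-catenin genes Ctnna1 9.75 ± 0.047 and Ctnna2 9.01, and the delta-catenin genes Ctnnd1 10.35 and Ctnnd2 11.17. Ctnna3, the alpha-catenin of heart and testis, was not above at 4.85 ± 0.057. All 3 measured genes of cadherin shedding were above, the metalloprotease gene Adam10 (10.54) and the gamma-secretase genes Ncstn (10.00) and Aph1a (11.52).

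Partners of the protocadherins were also mostly above the reference level, against 59.1% of all genes. All 8 measured genes of the WAVE complex, an actin regulator that delta-2 protocadherins bind, were above, for example Nckap1 (11.46), Cyfip2 (11.54), Abi1 (10.14) and Abi2 (10.47). All 12 genes linked to clustered protocadherin promoters were above, among them the insulator factor gene Ctcf (9.70), the cohesin genes Rad21 (11.35), Smc1a (9.44) and Smc3 (10.27), Smchd1 (10.08), which helps silence these clusters, and the DNA methyltransferase gene Dnmt3b (6.13). Of 4 measured cytoplasmic partners Fyn (12.12), Axin1 (8.57) and Pdcd10 (8.47) were above, and the kinase gene Ptk2b (5.41) was not.

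Other branches of the cadherin superfamily were counted in the same way. Of 9 desmosomal cadherins, which join epithelial cells, 0 were above by limma, whether the p under 0.05 was adjusted or not, and 1, Dsg1a, exceeded the reference level on every array. Dsc1 (4.41), Dsc2 (5.20) and Dsc3 (4.73) were under it on every array, and Dsg1a had 5.66, 5.58 and 5.77. Of 18 other superfamily genes 11 were above (61.1%), near the 59.1% of all genes. They included the giant cadherin genes Fat1 (11.23), Fat3 (8.09), Fat4 (8.17) and Dchs1 (9.07), whereas Fat2 (5.48 ± 0.35), Cdhr1 (5.44), Cdhr2 (4.59) and Cdhr3 (5.26) were not above. Of the remaining marker lists, 3 of 7 choroid plexus and ependymal markers were above, among them Otx2 (8.27) and Foxj1 (7.86). The mural, fibroblast and microglia markers above included Acta2 (7.45), Pdgfrb (6.99 ± 0.11) and Cx3cr1 (6.66 ± 0.27). The part of those cells in the cadherin signals was not tested.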

How the data were processed

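Total RNA of 3 neurosphere cultures of 1 group was measured on expression arrays. The authors deposited log2 signals for 41345 probe sets, and the submitters' processing notes name RMA as the method. The RMA settings are not given, and values were taken at the level of probe sets. RMA normalises between arrays, so a change shared by all genes of an array is removed. Genes came from the array's annotation table: 23521 probe sets carried 1 symbol, 1814 several and 16010 none. All 58 members matched a RefSeq gene by ID under the same symbol, and 4 had several probe sets. The reference level used 1400 receptor probe sets. The test was limma (version 3.58.1, R 4.3.3): an intercept on signal minus reference level, eBayes with an intensity trend, one-sided, Benjamini-Hochberg over 22180 genes, threshold 0.05. It was tested on simulated data. The number of arrays limits the precision. Members and lists were chosen with earlier results of these data known. All members are named, and up to 4 genes above and 4 not above per list, in list order. Genes named beyond that were chosen after their values were seen. Alternatives changed the reference percentile (90, 99), the reference genes (142 probe sets of defensins, taste receptors and keratin-associated genes), the probe set, the scaling, the model and the replicates, each left out in turn. Figures used matplotlib 3.10.9.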

Additional observations from a re-analysis of the deposited data

Results flagged for a closer look

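Probe sets with several gene symbols were kept out of the comparisons, and 3 that carry protocadherin symbols had signals above the reference level on every array. One whose 9 symbols are all of the alpha cluster had a mean of 5.80, the same on each array, and one whose 9 symbols are all of the gamma cluster had a mean of 5.84, also the same on each array. Neither exceeded the 99th percentile of the receptors on any array. A probe set that carries a gamma protocadherin symbol beside that of another gene had 12.30, 12.34 and 12.13, a mean of 12.26, and was above the 99th percentile on all 3 arrays. Which of its genes gives this signal cannot be told apart.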

How the results depend on the processing

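Of the 58 members, 40 kept their call under every alternative run and 18 did not. The total above was 31 to 49 under the alternatives (46 as reported). Centring, quantile normalisation, limma without trend or with robust eBayes, and a plain requirement to be above on every array changed no member's call. Leaving out a replicate gave 44 to 46 members above. Levels of unspecific signal mattered most, and the cause of the single changes was not tested. With the 99th percentile, 2 type I and 1 other Cdh gene were above, and margins turned to -0.55 for Cdh1, -0.16 for Cdh15, -0.48 for Cdh7, -0.24 for Cdh8, -0.57 for Cdh26 and -0.32 for Pcdh20. With the keratin, defensin and taste receptor level, 43.5% of all genes were above, as were 2 type I, 1 other Cdh and 7 non-clustered genes. The margins were then -0.58 for Cdh1, -0.19 for Cdh15, -0.51 for Cdh7, -0.27 for Cdh8, -0.61 for Cdh26, -0.36 for Pcdh20 and -0.0012 for Pcdhb10. With the 90th percentile they turned to 0.21 for Cdh5, 0.32 for Pcdh12 and 0.14 for Pcdhb5. With the median over probe sets Cdh1 had -0.53. Without 1 replicate, 1 to 2 other Cdh genes were above, and 0 to 1 members had a range over 0.5. In alternatives added after seeing the data, array 3 was lowest for 17 beta genes after centring and 16 after quantile normalisation (18 as reported). The share of 21.7% of all genes holds for the signals as deposited and is not the background of these 17 and 16. The shares of all genes under those 2 alternatives are not printed here. No paired analysis was possible because the series holds 1 group.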
